A study of Mus musculus with 6 samples.

Results

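The lipoxygenase genes of the mouse were examined as a family in primary hepatocytes forced to express Aloxe3, together with Alox5ap, which encodes the 5-lipoxygenase activating protein (FLAP). The 7 genes were taken by name, 6 lipoxygenases (Aloxe3, Alox12b, Alox8, Alox5, Alox12 and Alox15) and Alox5ap, out of 41388 genes in the deposited expression table. Hepatocytes of C57BL/6J mice were isolated with collagenase, kept overnight in growth medium and exposed for 24 h to adenovirus, which encoded β galactosidase for 3 libraries (β-gal, replicates 1, 2 and 3) and ALOXE3 for 3 others (Aloxe3, replicates 7, 8 and 9). Both groups therefore carried adenovirus, and no library of cells without virus was analysed here. Poly-A RNA was read as single reads of 50 bases, and levels are given as RPKM, which scales reads by exon length and by the size of the library.

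Lipoxygenases are iron enzymes that insert oxygen into polyunsaturated fatty acids such as arachidonic acid and so make fatty acid hydroperoxides. The protein of Aloxe3, eLOX3, is unusual in that it mainly rearranges hydroperoxides made by another lipoxygenase into epoxyalcohols and ketones, and it is best known from the epidermis, where it acts after the 12R-lipoxygenase encoded by Alox12b in building the water barrier. The 5-lipoxygenase of leukocytes makes leukotrienes with the help of FLAP, which presents arachidonic acid to it at the nuclear membrane. Hepatocytes are not a classic site of most of these enzymes.

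Of the 7 genes, Aloxe3 and Alox8 rose in assigned reads, and the other 5 were at low levels or at 0 in both groups. Aloxe3, the gene carried by the virus, stood at 1.95 ± 0.178 RPKM (SD, n = 3) in the β-gal libraries and at 48.1 ± 7.32 RPKM in the Aloxe3 libraries. Alox8, its neighbor on chromosome 11, stood at 0.0503 ± 0.0167 and 9.59 ± 1.70 RPKM (SD, n = 3 each). Whether the added reads came from the Alox8 gene of the cells was not tested. Alox12, Alox5 and Alox5ap had overlapping groups, a single read of Alox15 was counted in 1 library, and Alox12b was at 0 in all 6.

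**Figure D1:**
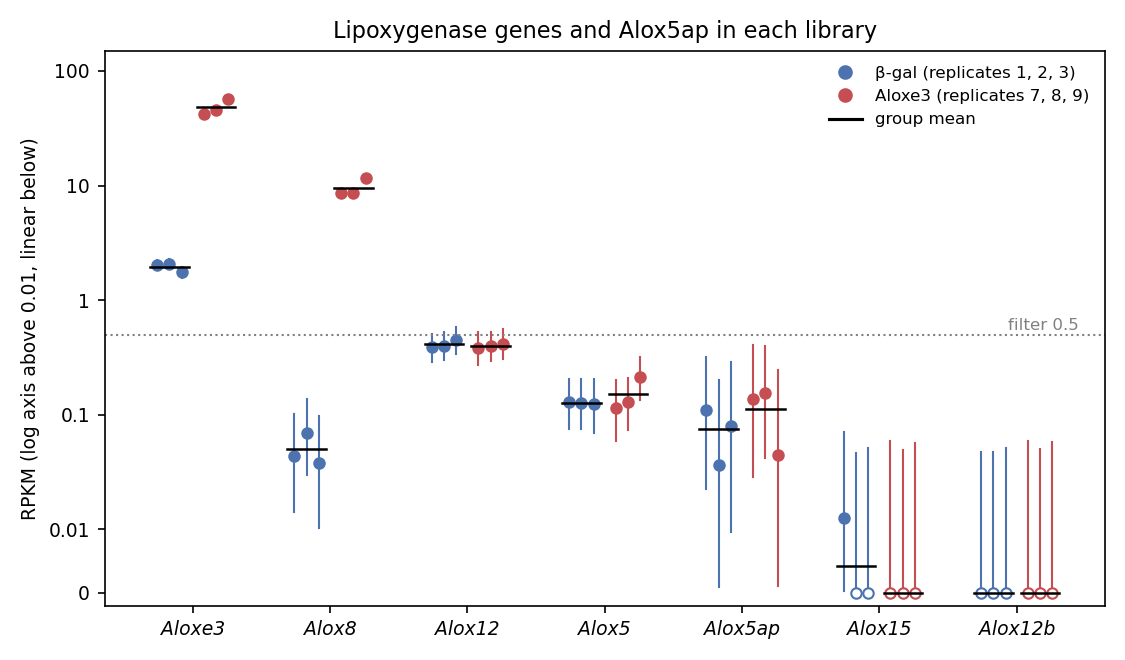
RPKM of the 7 genes in each library (points; open points are at 0) with the exact 95% Poisson interval of the reads behind it (vertical lines) and the group mean (black bars), on an axis that is logarithmic above 0.01 and linear below. Aloxe3 and Alox8 were separated between groups, while the points of the other 5 genes overlapped; the dotted line at 0.5 RPKM is the mean that a gene had to reach to be tested.

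Libraries were scaled to 25521908 to 32431318 reads, and a single read on 1 kb of exon equaled 0.0308 to 0.0392 RPKM. The hepatocyte markers Alb, which encodes albumin (4524 RPKM in β-gal and 4445 in Aloxe3 libraries), and Apoa1, the main protein of high density lipoprotein (243.1 and 226.7 RPKM), were high. A mean of at least 1 RPKM in 1 or both groups was reached by 9 of 10 hepatocyte markers, by Cps1 only in the Aloxe3 group. Other markers of the list were far lower than Alb, such as Cyp2e1 (2.17 and 2.38 RPKM) and Asgr1 (1.65 and 1.88). The groups did not overlap in 4 of the 9 that were tested, where 19.9% of all tested genes had no overlap. Ttr, a carrier of thyroid hormone, fell from 124.1 ± 6.46 to 100.5 ± 1.06 RPKM (SD, n = 3; limma adjusted p = 0.0448), a call that was lost with each of the 6 libraries left out in turn (limma adjusted p = 0.0793 to 0.15), with no filter, with the filter at 0.1 RPKM, with quantile normalization and with eBayes without trend (0.0675 to 0.164). The call held with voom (limma adjusted p = 0.00188), the filter at 5 RPKM (0.0194), median rescaling (0.0472) and a pseudocount of 0.1 (0.0449). Apoa1 (limma adjusted p = 0.349) and the antitrypsin Serpina1a (52.2 ± 1.07 and 48.3 ± 0.306 RPKM; limma adjusted p = 0.262) had lower values in the Aloxe3 group without passing the test. Higher values there were those of Cps1 of the urea cycle, at 0.985 ± 0.0691 and 1.496 ± 0.181 RPKM (limma adjusted p = 0.161, and 0.0139 with voom), and of the tyrosine aminotransferase Tat, untested under the filter and also without overlap, at 0.278 ± 0.0778 and 0.578 ± 0.122. Among markers of other cells Cd68, a lysosomal protein of macrophages, was the highest (147.9 and 133.1 RPKM). The 10 Kupffer cell markers summed to 154.4 to 159.2 RPKM in β-gal and 135.6 to 149.9 in Aloxe3 libraries, and to 6.81 to 10.7 over all 6 once Cd68 was left out, with the complement gene C1qb at 2.06 and 2.05 RPKM. Sinusoidal endothelial markers summed to 30.6 to 34.8 and 30.1 to 35.2 RPKM, led by the cadherin Cdh5 (15.3 and 15.3 RPKM) and by Oit3 (6.24 and 5.95), and stellate cell markers to 4.73 to 5.21 and 4.77 to 4.82 RPKM, led by the collagen chain Col1a1 (2.37 and 2.27) and the proteoglycan Dcn (1.13 and 1.10), with Lrat at 0. Lymphocyte markers summed to 0.267 to 0.278 RPKM in β-gal and 0.312 to 0.354 in Aloxe3 libraries, without overlap, led by Ptprc, the leukocyte antigen CD45 (0.178 and 0.168), and Cd79a (0.0367 and 0.0830), with Ms4a1 and Nkg7 at 0. All of these markers were under the filter or at 0. Ptprc was not higher in the Aloxe3 group, so that the separation of the sums came from markers at still lower levels.

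In the mouse genome (GRCm38) the epidermal lipoxygenases lie side by side on chromosome 11. Aloxe3 (ENSMUSG00000020892) occupies chr11:69125896-69149115 on the forward strand, and its main transcript has 15 exons and 3019 bases. Alox12b (ENSMUSG00000032807) follows on the same strand at chr11:69156989-69169792, after a gap of 7.87 kb. Alox8 (ENSMUSG00000020891) lies a further 14.1 kb on, at chr11:69183932-69197843 on the reverse strand, so that it is transcribed toward the other 2, and its main transcript has 14 exons and 3226 bases. Between their aligned coding bases, gaps left out, Aloxe3 was 64.5% identical to Alox8, 63.0% to Alox12b and 60.1% to 60.7% to Alox12, Alox15 and Alox5.

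As reads of 50 bases were assigned to these genes, the most similar stretches of 50 bases were read from the transcripts to show how far a read of one gene differs from another. The first set holds the stretch of Aloxe3 with the fewest mismatches to Alox8, in the last exon of each gene, within the coding sequence. It lies at chr11:69148678-69148727 (forward strand) in exon 15 of Aloxe3, at chr11:69185102-69185151 (reverse strand) in exon 14 of Alox8 and at chr11:69169664-69169713 (forward strand) in exon 15 of Alox12b. Capitals mark bases that differ from Aloxe3, which are 4 in Alox8 and 15 in Alox12b.
Aloxe3: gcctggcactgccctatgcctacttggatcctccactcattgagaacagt
Alox8: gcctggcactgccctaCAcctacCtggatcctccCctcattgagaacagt
Alox12b: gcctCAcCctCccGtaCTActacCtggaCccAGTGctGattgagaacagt

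The second set shows an inner coding stretch in which all 3 genes are alike, at chr11:69134214-69134263 (forward strand) in exon 9 of Aloxe3, chr11:69187767-69187816 (reverse strand) in exon 8 of Alox8 and chr11:69165901-69165950 (forward strand) in exon 9 of Alox12b. Here Alox8 differed from Aloxe3 at 7 and Alox12b at 9 of the 50 bases, again in capitals.
Aloxe3: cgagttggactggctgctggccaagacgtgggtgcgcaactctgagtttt
Alox8: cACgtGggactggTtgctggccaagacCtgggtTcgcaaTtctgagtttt
Alox12b: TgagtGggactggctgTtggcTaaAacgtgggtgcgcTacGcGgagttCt

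Over the 2970 windows of 50 bases in the Aloxe3 transcript, 3 came within 4 mismatches of Alox8, the fewest found, and 151 (5.08%) within 10. The closest window to Alox12b had 5 mismatches, and 94 windows (3.16%) came within 10. No window came within 10 mismatches of Alox12, Alox15 or Alox5, whose closest had 14, 12 and 13. The longest run of identical bases that Aloxe3 shared was 23 with Alox8 and 29 with Alox12b, so that no stretch of 50 bases was common to Aloxe3 and either neighbor. Of all annotated mouse transcripts (141767), none of another gene held a 50-base window of Aloxe3 or Alox12b unchanged. For Alox8, 65 of 3177 windows recurred unchanged in other genes, none of them a lipoxygenase.

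**Figure D2:**
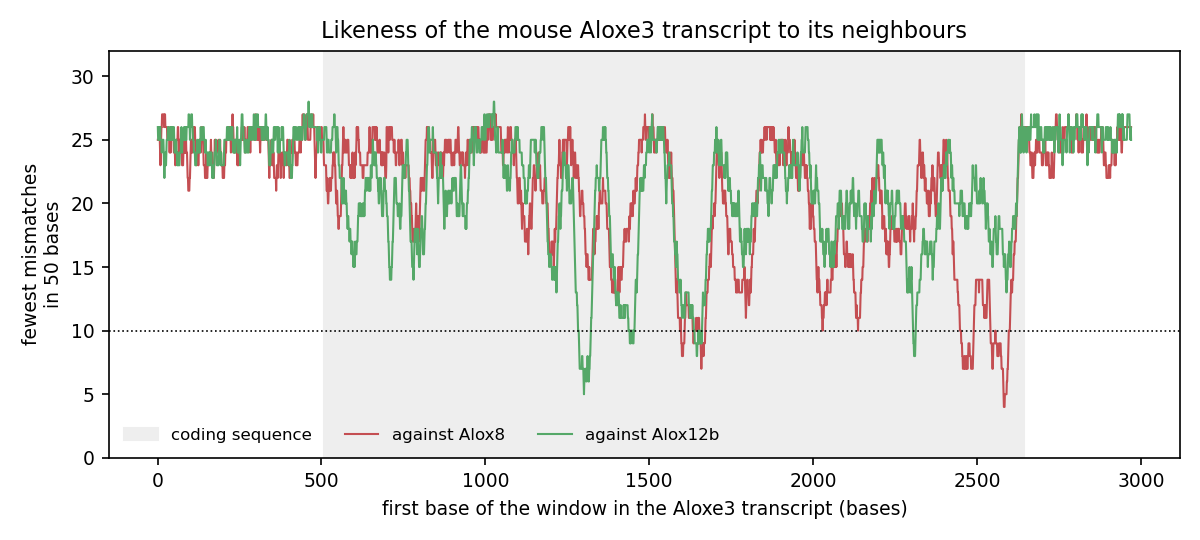
Fewest mismatches between each 50-base window of the Aloxe3 transcript (horizontal axis: first base of the window) and any window of the Alox8 (red) or Alox12b (green) transcript, with the coding sequence shaded and 10 mismatches dotted. The 3 windows closest to Alox8, with 4 mismatches, lie near the end of the coding sequence, and the dips below 10 lie in it or at its end.

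Aloxe3 was read 421, 428 and 330 times in β-gal replicates 1, 2 and 3, which gave 2.04, 2.06 and 1.74 RPKM. It was read 6904, 8901 and 9527 times in Aloxe3 replicates 7, 8 and 9, which gave 42.3, 45.8 and 56.3 RPKM. Every Aloxe3 library was far above every β-gal library, and this increase checks the labels rather than a response of the cells. The log2 fold change on the log2(RPKM + 1) scale was 4.05 ± 0.101 (SE; adjusted p = 4.74e-06, limma over 12693 genes). As the pseudocount of 1 lessens the change of low genes, the ratio of mean RPKM was larger, at 24.7. An exact permutation test of the difference in mean RPKM gave p = 0.1 (two-sided), the smallest that 3 against 3 libraries allow. The labels do not say that the replicates are separate cultures or animals, so that p-values measure only the spread between these samples, which may be technical.

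By RPKM, 76.7% of the genes in the table lay below Aloxe3 in the β-gal libraries and 97.3% in the Aloxe3 libraries. Its reads made up 0.00125% and 0.0308% of all reads, respectively. The RPKM rests on 6397 bases of exon summed over all annotated isoforms, and at the 3019 bases of the main transcript the same reads correspond to 4.13 ± 0.377 and 102 ± 15.5 RPKM (SD, n = 3). The coefficient of variation was 9.12% in β-gal libraries, where counting error alone gives 5.04%, and 15.2% in Aloxe3 libraries, where it gives 1.09%. Replicate 9 had the highest level. In RNA of whole cultures, more cells with virus and more RNA per cell cannot be told apart.

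The study labels the virus of its respiration assays as carrying human ALOXE3, while the labels of these libraries give no species. The values count reads assigned to mouse genes. Human sequence was not used here, and its part in the reads of Aloxe3 and of Alox8 was not tested.

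Alox8, which encodes the 8-lipoxygenase of mouse skin, the ortholog of human 15-lipoxygenase type 2, was read 5, 8 and 4 times in β-gal replicates 1, 2 and 3, or 0.0435, 0.0693 and 0.0380 RPKM. In Aloxe3 replicates 7, 8 and 9 it was read 787, 925 and 1086 times, or 8.66, 8.55 and 11.5 RPKM. All Aloxe3 libraries were higher than all β-gal libraries, with a log2 fold change of 3.32 ± 0.104 (SE; limma adjusted p = 1.34e-05). On the log2(RPKM + 1) scale the change of so low a gene is compressed. The ratio of reads, scaled to library size, was 188, with a 95% interval from 117 to 324 for counting error only, which is wide because it rests on 17 reads over the β-gal libraries. With voom in limma on the derived reads, which uses a smaller offset, the log2 fold change was 7.47. Alox8 passed the filter of 0.5 RPKM only through the Aloxe3 group. By RPKM, 54.5% of genes lay below it in the β-gal libraries and 87.2% in the Aloxe3 libraries.

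Thus 2 of the 7 genes were tested and both were called higher, where 0.355% of the 12693 tested genes were called higher and 0.394% in either direction. One of the pair is the gene on the virus, and the other entered the test through the group where it was high, so that this count is no measure of the family. With any 1 library left out, under the filter set on all 6, both stayed past the threshold, and the number of all genes called was 6 to 19 in place of 50. For the same reasons this adds no support for the pair.

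The reads of Alox8 kept a nearly fixed proportion to those of Aloxe3 within the Aloxe3 group. For every 100 reads of Aloxe3 there were 11.4, 10.4 and 11.4 reads of Alox8 in replicates 7, 8 and 9. In β-gal replicates 1, 2 and 3 the figures were 1.19, 1.87 and 1.21. The proportion was higher in every Aloxe3 library than in any β-gal library. Replicate 9 exceeded replicate 7 in both genes, while replicate 8 exceeded replicate 7 in Aloxe3 (45.8 and 42.3 RPKM) but not in Alox8 (8.55 and 8.66). On the RPKM scale, which takes exon length into account, Alox8 stood at 20.5, 18.7 and 20.5 per 100 of Aloxe3 in the Aloxe3 libraries and at 2.13, 3.36 and 2.18 in the β-gal libraries.

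Alox12b, the 12R-lipoxygenase that supplies eLOX3 with its substrate in skin, lies between the other 2 and was listed at 0 in all 6 libraries. The floor of 3 reads on its 2431 bases is 0.0381 to 0.0484 RPKM, and the upper bound of the two-sided exact 95% interval for a count of 0, 3.69 reads, is 0.0468 to 0.0595 RPKM. No fold can be given, and a level below these limits was not detectable at this depth.

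The 11 other annotated genes that start within 100 kb of the start of Aloxe3 were compared as well. Of these, 5 were tested and 0 were called by limma, with log2 fold changes from -0.26 to 0.14 and a median of 0.02, where the median over all tested genes was 0.00492 and 0.394% of them were called. All 5 lie upstream of Aloxe3, with starts at -80.25 to -30.68 kb from its start. No gene on the side of Alox8 was among them. Borcs6, a subunit of the BORC complex on lysosomes, had 4.61 ± 0.461 RPKM in β-gal and 3.68 ± 0.168 in Aloxe3 libraries (SD, n = 3; limma adjusted p = 0.24, the smallest of the 5). Aurkb, a kinase of mitosis, had 2.80 ± 0.0883 and 3.21 ± 0.510 RPKM (limma adjusted p = 0.546). The clock gene Per1 had 5.52 ± 0.153 and 5.63 ± 0.935 RPKM, Vamp2, a SNARE protein of vesicles, 9.03 ± 0.763 and 9.96 ± 0.869, and Tmem107, a protein of the ciliary transition zone, 1.37 ± 0.198 and 1.29 ± 0.122. The other 6 were under the filter, among them Hes7, the nearest upstream gene on the forward strand (0.0706 ± 0.0346 and 0.0470 ± 0.0531 RPKM), and 9130213A22Rik on the reverse strand (0.0136 and 0.0291 RPKM). The start sites of Aloxe3 and Alox8 lie 71.9 kb apart.

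**Figure D3:**
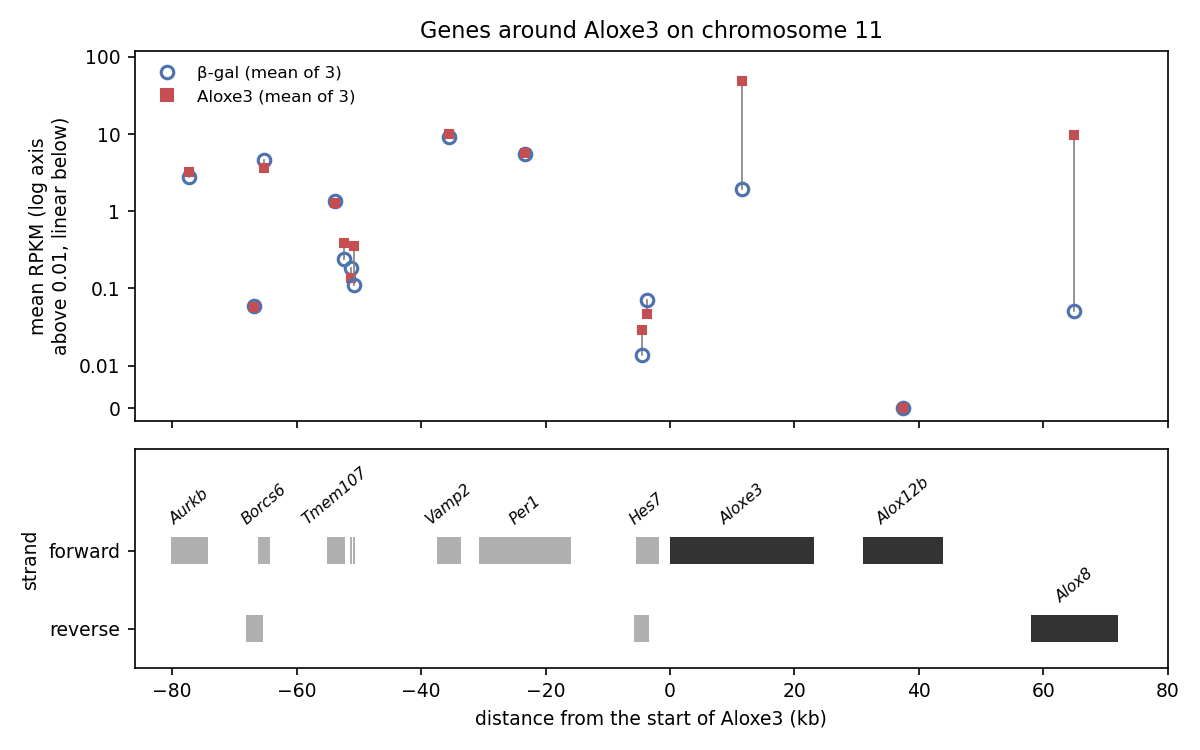
Mean RPKM of the annotated genes around Aloxe3 in the β-gal (open circles) and Aloxe3 (squares) libraries, n = 3 each, at the middle of each gene, by distance in kb from the start of Aloxe3, with the gene bodies by strand below (lipoxygenases dark; 5 genes not named). Aloxe3 and Alox8 are far apart between groups, Alox12b is at 0 in both, and the 5 tested neighbors, all upstream of Aloxe3, differ by -0.26 to 0.14 on the log2(RPKM + 1) scale.

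The 250 bases before the start of Alox8 are shown because more reads were assigned to it in the Aloxe3 libraries, though it is not the gene named on the virus. Whether those reads came from the Alox8 gene of the cells was not tested. They lie at chr11:69197844-69198093 on the reverse strand (RefSeq, GRCm38.p6), have a GC content of 52.4% and are printed in the direction of transcription, with a GGGCGG box in capitals at 42 to 37 bases before the start.
Alox8 upstream: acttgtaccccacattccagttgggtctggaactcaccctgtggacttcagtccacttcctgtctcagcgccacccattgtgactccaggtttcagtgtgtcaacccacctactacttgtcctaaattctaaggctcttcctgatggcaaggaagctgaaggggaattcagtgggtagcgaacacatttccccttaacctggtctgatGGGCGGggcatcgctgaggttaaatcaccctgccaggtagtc

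RefSeq promoters of 300 bases, from 250 before to 50 after the start, were given for 4 of the 7 genes (Alox12b, Alox8, Alox12 and Alox5), and were searched on both strands. The nuclear receptor half-site AGGTCA was in 16.3% of 32851 mouse promoters, the same letters repeated with 1 base of any kind between (DR1), which contains the half-site, in 0.0396%, and TATAAA in 13.6%. None of these was found in the windows of the 4 genes. GGGCGG, which was added after the sequence had been seen, was in 35.7% of promoters, 3 times in Alox12b, once in Alox8, 3 times in Alox12 and once in Alox5, so that it did not set Alox8 apart from members at low levels.

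Alox5 (ENSMUSG00000025701, chr6:116410077-116461178, reverse strand), the 5-lipoxygenase that starts leukotriene synthesis, had 17, 17 and 15 reads in β-gal replicates 1, 2 and 3, or 0.128, 0.128 and 0.124 RPKM. It had 12, 16 and 23 reads in Aloxe3 replicates 7, 8 and 9, or 0.115, 0.128 and 0.212 RPKM. Replicate 9 was the highest and replicate 7 the lowest of all 6 libraries, so that the groups overlapped. The ratio of reads, scaled to library size, was 1.19 (95% interval 0.789 to 1.80, counting error only), and the exact permutation test gave p = 0.8 (two-sided). With the filter lowered to 0.1 RPKM, which let 17153 genes into the test, Alox5 had a log2 fold change of 0.03 ± 0.0556 (SE; limma adjusted p = 0.877), where 0.111% of genes were called.

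Alox5ap (ENSMUSG00000060063, chr5:149264767-149288153, forward strand), which encodes FLAP, had 3, 1 and 2 reads in β-gal and 3, 4 and 1 reads in Aloxe3 replicates, or 0.109, 0.0362 and 0.0794 against 0.138, 0.154 and 0.0444 RPKM. These reads are known only up to a common factor, as the smallest length that gives whole reads, 852 bases, is not the annotated 1420. The groups overlapped, and all values but 1 were at or under the floor of 3 reads, so that no fold is given (exact permutation p = 0.4, two-sided). An antisense gene, Gm19719, overlaps Alox5ap and shares 93 windows of 50 bases with its transcript, and reads of the pair cannot be told apart without strand.

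As Alox5 and FLAP are known from leukocytes, markers of these cells are given beside them. The 8 neutrophil markers summed to 0.393 to 0.846 RPKM in β-gal and 0.555 to 0.712 RPKM in Aloxe3 libraries, led by the receptor Csf3r (0.266 and 0.351 RPKM) and the antimicrobial peptide gene Camp (0.128 and 0.169). Of 7 mast cell and basophil markers Cpa3, Mcpt4 and Fcer1a were at 0, and the sum of 2.68 to 3.26 RPKM in β-gal and 2.72 to 3.11 in Aloxe3 libraries came mostly from the receptor Kit (2.66 in both groups), followed by the basophil protease Mcpt8 (0.225 and 0.212). The part of such cells in the reads of Alox5 and Alox5ap was not tested, and fewer cells of a type and less RNA per cell cannot be told apart in these libraries.

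Alox12 (ENSMUSG00000000320, chr11:70241457-70255353, reverse strand), the 12-lipoxygenase of platelets, was the most abundant lipoxygenase after Aloxe3 in β-gal libraries. It had 51, 53 and 54 reads in β-gal replicates 1, 2 and 3, or 0.387, 0.400 and 0.447 RPKM. It had 40, 49 and 45 reads in Aloxe3 replicates 7, 8 and 9, or 0.384, 0.395 and 0.417 RPKM. The groups overlapped, with a ratio of scaled reads of 0.971 (95% interval 0.765 to 1.23, counting error only) and p = 0.6 in the exact permutation test (two-sided). With the filter at 0.1 RPKM it had a log2 fold change of -0.01 ± 0.0502 (SE; limma adjusted p = 0.952). The 7 platelet and megakaryocyte markers summed to 1.61 to 1.91 RPKM in β-gal and 2.22 to 2.31 in Aloxe3 libraries. They were led by the integrin Itga2b (1.16 and 1.39 RPKM) and the chemokine Pf4 (0.454 and 0.638 RPKM), with Gp6 at 0, and the sums did not overlap between groups; their part in the level of Alox12 was not tested.

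Alox15 (ENSMUSG00000018924, chr11:70344152-70352031, reverse strand), the leukocyte-type 12/15-lipoxygenase of the mouse, had 1 read in β-gal replicate 1 (0.0126 RPKM) and 0 in the other 5 libraries. The floor of 3 reads is 0.0377 to 0.0479 RPKM for this gene, so that both groups were under it. Alox12 and Alox15 lie in a second group of lipoxygenases on chromosome 11, with 66 coding genes and 1044 kb between Alox8 and Alox12. Alox12e, which lies between Alox12 and Alox15 and is not among the 7, was at 0 in all libraries.

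In the β-gal libraries the levels per length followed the order Aloxe3 (1.95 RPKM), Alox12 (0.411), Alox5 (0.127), Alox5ap (0.0749), Alox8 (0.0503), Alox15 (0.00421) and Alox12b (0). Neighbors in this order had separate ranges over the 3 libraries, except for Alox5ap and Alox8, and for Alox15 and Alox12b. In the Aloxe3 libraries the order was Aloxe3 (48.1 RPKM), Alox8 (9.59), Alox12 (0.398), Alox5 (0.152) and Alox5ap (0.112), with Alox12b and Alox15 at 0. There the ranges of Alox5 and Alox5ap overlapped. Ranges over libraries leave out counting error, and the 95% counting intervals of neighbors below Alox12 also overlapped in single libraries, such as those of Alox5 and Alox5ap in both groups, of Alox8 and Alox15 in β-gal and of Alox5ap and Alox12b in Aloxe3 libraries. Alox8 moved from the fifth place to the second, and the order of the others above 0 was unchanged.

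The 6 lipoxygenases without Alox5ap summed to 2.61, 2.66 and 2.35 RPKM in the β-gal libraries and to 51.5, 54.8 and 68.5 RPKM in the Aloxe3 libraries. Aloxe3 was the larger part of this sum in both, with 76.6% ± 2.15 and 82.6% ± 0.719 (SD, n = 3). The share of Alox8 was 1.96% ± 0.557 and 16.4% ± 0.725, and that of Alox12 was 16.3% ± 2.35 and 0.691% ± 0.073. While the shares of Alox12 and Alox5 were lower in the Aloxe3 libraries, the summed level of the enzymes other than Aloxe3 and Alox8 was 0.542 ± 0.0246 and 0.55 ± 0.0694 RPKM.

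By the distance over the 6 libraries between log2(RPKM + 1) values, each taken relative to the β-gal mean, Alox8 was the nearest of 12692 genes to Aloxe3, at 1.27, and Aloxe3 the nearest to Alox8. This distance follows mainly the size of the rise, and as these genes had the highest log2 fold changes of all tested, their nearness is a description and adds nothing to the changes given above. The next for both were Mir5119 (4.90 from Aloxe3 and 3.68 from Alox8) and Mir6939 (4.96 and 3.72). These microRNA genes of 57 and 75 bases rest on very few reads, 0 to 1 against 2 to 5 for Mir5119 and 0 against 1 to 7 for Mir6939. Neither passed the test, with log2 fold changes of 1.27 ± 0.238 and 1.23 ± 0.355 (SE; limma adjusted p = 0.1 and 0.262).

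A list of 66 genes around the family was followed as well. It holds genes that supply, convert, reduce or sense lipoxygenase products, partners in the epidermal barrier, and 4 other lipoxygenase loci. Of the list 63 were in the table, and those missing were all among these loci. The filter was reached by 29 and 0 were called by limma, where 0.394% of all tested genes were called. At an unadjusted p under 0.05 there were 3 higher and 2 lower genes of the 29, beside 928 higher and 688 lower of all 12693. Log2 fold changes ran from -0.29 to 0.29 with a median of 0.01, and 15 were above and 14 below 0. The groups did not overlap in 6 of the 29, beside 19.9% of all tested genes. With voom in limma 1 gene was called, Cotl1, where 1.37% of all genes were.

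**Figure D4:**
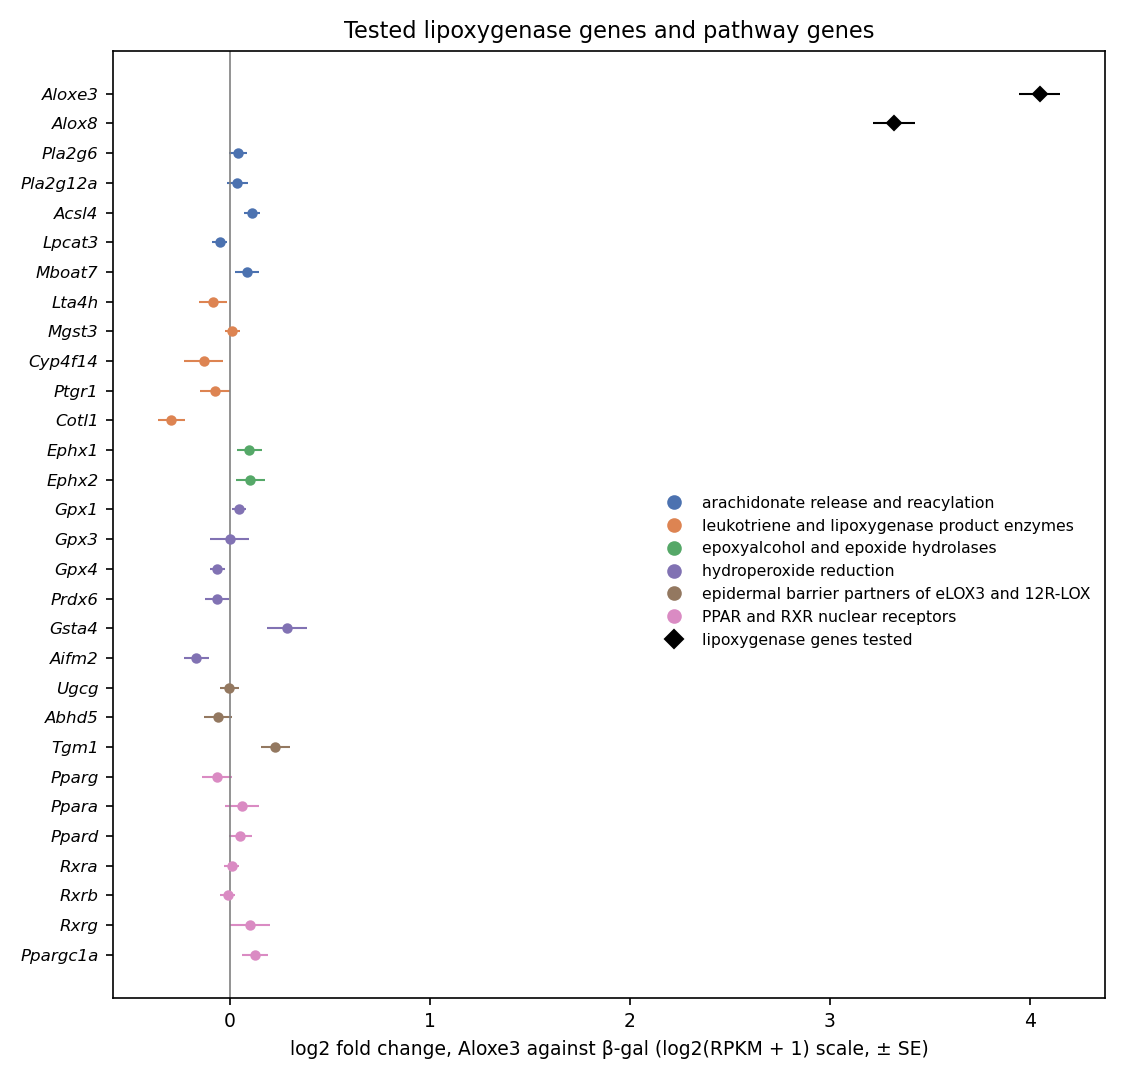
Log2 fold change (Aloxe3 against β-gal, log2(RPKM + 1) scale) with its SE for the tested genes of the pathway list, all but 1 of 29, colored by group, and for Aloxe3 and Alox8 (black diamonds). The list genes lie between -0.29 and 0.29, and the lipoxygenases at 4.05 and 3.32.

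Of 10 genes for the release and return of arachidonic acid to phospholipids, 5 were tested and 0 were called. Acsl4, which activates arachidonic acid with coenzyme A, had 20.6 ± 0.590 RPKM in β-gal and 22.3 ± 0.686 in Aloxe3 libraries, with groups that did not overlap (limma adjusted p = 0.317). Mboat7, which returns arachidonic acid to phosphatidylinositol, had 8.26 ± 0.173 and 8.85 ± 0.809 RPKM (limma adjusted p = 0.58). The cytosolic phospholipase Pla2g4a, the main source of free arachidonic acid in many cells, was under the filter at 0.118 ± 0.0123 and 0.142 ± 0.0208 RPKM.

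Of 12 genes that act with or after 5-lipoxygenase and on other lipoxygenase products, 5 were tested and 0 were called. Cotl1, which encodes coactosin-like protein, a binding partner of actin and of 5-lipoxygenase, had 43.6, 39.6 and 36.5 RPKM in β-gal and 33.9, 30.8 and 32.5 RPKM in Aloxe3 libraries. These groups did not overlap, yet the log2 fold change of -0.29 ± 0.0665 (SE) had an adjusted p of 0.177 in limma and of 0.0252 with voom. Cyp4f14, a fatty acid hydroxylase of the family that degrades leukotriene B4, had 1.22 ± 0.166 and 1.03 ± 0.209 RPKM (limma adjusted p = 0.599). Ltc4s, which makes leukotriene C4, stayed under the filter at 0.373 ± 0.113 and 0.484 ± 0.229 RPKM.

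Of 4 epoxide hydrolases, 2 were tested and 0 were called. Ephx1, the microsomal enzyme, had 99.0 ± 5.04 and 106 ± 7.78 RPKM (limma adjusted p = 0.543), and Ephx2, the soluble enzyme, 10.5 ± 0.256 and 11.4 ± 1.31 (limma adjusted p = 0.578). Ephx3, which hydrolyzes epoxyalcohols of the eLOX3 pathway in skin, was under the filter at 0.299 ± 0.0843 and 0.310 ± 0.0612 RPKM.

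Of 8 genes that reduce or conjugate lipid hydroperoxides and their products, 6 were tested and 0 were called. Gsta4, a glutathione transferase for hydroxyalkenals, had 27.9, 32.6 and 35.8 RPKM in β-gal and 43.6, 38.8 and 35.6 RPKM in Aloxe3 libraries. The lowest Aloxe3 library lay within the β-gal range (log2 fold change 0.29 ± 0.0989 SE; limma adjusted p = 0.313). Aifm2, which reduces coenzyme Q and limits lipid peroxidation, had 15.4 ± 0.649 and 13.7 ± 1.14 RPKM, without overlap (limma adjusted p = 0.335). Gpx4, the glutathione peroxidase for phospholipid hydroperoxides, had 51.4 ± 0.113 and 49.2 ± 1.87 RPKM, also without overlap (limma adjusted p = 0.534).

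Of 12 genes that serve the epidermal barrier together with eLOX3 and 12R-lipoxygenase, 4 were tested and 0 were called. Tgm1, the transglutaminase that cross-links the cornified envelope, had 1.67, 1.59 and 1.99 RPKM in β-gal and 2.09, 2.16 and 2.42 RPKM in Aloxe3 libraries, with a log2 fold change of 0.23 ± 0.0733 (SE; limma adjusted p = 0.291). Of 9 keratinocyte markers Flg was not analysed here, and the 8 others, with Krt1 at 0, summed to 6.07 to 8.17 RPKM in β-gal and 6.19 to 7.25 in Aloxe3 libraries, led by the envelope proteins Ivl (3.06 and 3.27) and Lor (2.11 and 1.94). The sums overlapped between groups.

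The 9 receptors for lipoxygenase products, among them the leukotriene receptors Ltb4r1 and Cysltr1, were all under the filter, and the highest, Cmklr1, had 0.354 ± 0.0477 and 0.415 ± 0.0290 RPKM. All 7 genes of the PPAR and RXR group, nuclear receptors for fatty acids and their oxidized products with their coactivator, were tested and 0 were called. Ppargc1a, the coactivator, had 1.47 ± 0.0979 and 1.70 ± 0.156 RPKM (limma adjusted p = 0.468), and the retinoid receptor Rxrg 0.649 ± 0.0706 and 0.777 ± 0.217 (limma adjusted p = 0.712). Pparg, the receptor for which the eLOX3 product 12-KETE is a ligand, had 1.91, 1.77 and 1.89 RPKM in β-gal and 1.78, 1.96 and 1.49 RPKM in Aloxe3 libraries, and its groups overlapped (log2 fold change -0.06 ± 0.0733 SE; limma adjusted p = 0.76).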

How the data were processed

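RNA of primary hepatocytes was sequenced in 6 libraries from 1 run. The authors aligned reads with STAR 2.0.4b to GRCm38.p2, used featureCounts 1.4.5 to count those that aligned uniquely and without ambiguity, and deposited RPKM values, which were used as they are. How counts became RPKM is not given in the sources used here. Symbols and coordinates came from GENCODE M21 (40340 of 41388 identifiers matched). Reads were derived from the whole-number steps of the values (tolerance 0.01), with the annotated exon length or, for 8573 genes, the smallest length giving whole reads. Listed genes held 99.93% of the library size. Depth sets the 3-read floor. Intervals (95%, exact) cover counting error only, since reads carry no molecular identifiers.

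Tests used limma 3.58.1 (R 4.3.3; lmFit and trended eBayes) on log2(RPKM + 1) for genes whose mean across the 6 libraries reached 0.5 RPKM, with Benjamini-Hochberg adjustment at 0.05 and two-sided p-values. The script was tested on simulated data. Permutation tests used scipy 1.17.1, alignments Biopython 1.88. Groups came from the sample labels. Alternatives were a pseudocount of 0.1, no filter or filters at 0.1 and 5 RPKM, median rescaling, quantile normalization, eBayes without trend, voom on derived reads, and each library left out.

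The members and lists were chosen with earlier results of these data known. Named genes were the 7 members, in each pathway group the 2 tested genes with the smallest adjusted p and any past the threshold, the 3 genes nearest in pattern to Aloxe3 and to Alox8, genes starting within 100 kb of Aloxe3, and the 2 highest markers of each cell type. Pla2g4a, Ltc4s, Ephx3, Gpx4, Cmklr1, Ltb4r1, Cysltr1, Pparg, Ttr, Serpina1a, Cps1, Tat, Cyp2e1, Asgr1, Alox12e and markers at 0 were added after their values were seen. One gene of the pathway list is counted but not reported here.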

Additional observations from a re-analysis of the deposited data

How the results depend on the processing

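No paired analysis was possible because the replicate numbers of the groups (1, 2, 3 and 7, 8, 9) are not shared. Aloxe3 and Alox8 kept their direction and their side of the threshold under every alternative that could test them. The log2 fold change of Aloxe3 was 4.04 to 4.62 (highest adjusted p 0.000901, limma) and 3.93 to 4.14 with 1 library left out, and that of Alox8 was 3.20 to 7.47 (highest adjusted p 0.00188) and 3.19 to 3.39. With the filter at 5 RPKM 1 member was called in place of 2, as Alox8 fell below the filter. The number of genes called, 50, was 7 with no filter, 19 with the filter at 0.1 RPKM, 174 with voom and 6 to 19 with 1 library left out, where fewer samples were fitted; the cause of the other moves was not tested. Of the pathway list, voom called 1 gene in place of 0, Cotl1 (-0.30, adjusted p 0.0252; -0.30 to -0.28 over the alternatives with all libraries). The depth limits Alox12b, Alox15 and Alox5ap, which lay at or near the floor of 3 reads.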
